A study of Homo sapiens with 4 samples.

Results

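The cathepsins and cystatins described here are 8 lysosomal protease genes (CTSA, CTSB, CTSC, CTSD, CTSH, CTSL, CTSS and CTSZ) and 2 genes for cysteine protease inhibitors (CST3 and CSTB), chosen by name. All 10 were present among the 15279 named genes of the deposited table and all passed the filter on low values. The RNA-seq libraries were 2 of MDA-MB-231, a triple-negative human breast cancer line labelled as breast cancer, and 2 of MDA-MB-231Br, its derivative labelled as a breast cancer brain metastasis. Both lines were grown in culture in DMEM with 10% serum, with no treatment named and no brain tissue, so each line stands for itself as a cultured line. Nothing in the labels tells whether a line's libraries came from separate cultures. A p-value here reflects the spread among 4 libraries, taken in part over many genes, and that spread may be technical. In bulk RNA, fewer cells of a kind and less RNA per cell cannot be told apart. Letters A and B, for parental and for brain metastatic libraries, follow the order of the table's columns.

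Cathepsins are made as inactive precursors, carried to the acidic lysosome by mannose 6-phosphate receptors, and activated there by removal of a propeptide. Most are cysteine proteases, whereas CTSD is an aspartic and CTSA a serine protease. Cystatins bind the active site of cysteine cathepsins and block it: cystatin B, the product of CSTB, acts inside the cell, and cystatin C, the product of CST3, is secreted. In tumours, secreted cathepsins cut matrix and cell junction proteins, and cathepsin S, which stays active at neutral pH, has been tied to the passage of breast cancer cells through the blood-brain barrier by cleavage of the junction molecule JAM-B.

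Named genes took 25835225 to 30771290 reads per library. VIM, high in this line, had 38423 to 119552 normalized reads (reads divided by a size factor per library, by the authors) over the 4 libraries, CDH1 only 2.56 to 14.8 and ESR1 0 to 26.5, while ERBB2 had 955 to 1239 and EPCAM 91.2 to 398. Of 12 leukocyte and microglia markers only CSF1R was analysed here, at 264 and 338 normalized reads in parental and 33.6 and 55.1 in brain metastatic libraries. Brain metastatic library B stood apart from the other 3. Its summed interferon response list (15 genes analysed, none at 0) was at 78074 normalized reads, against 14326 in library A and 14899 and 15715 in the parental libraries. Its summed endoplasmic reticulum chaperone and stress list (9 genes analysed, none at 0) was at 467979, against 149526 in library A and 122581 and 117718 in the parental libraries. Pseudogenes of mitochondrial genes (15 rows) held 0.17% of its reads, against 0.0425% to 0.0483% elsewhere.

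CTSS and CST3 were higher and CSTB was lower in brain metastatic cells, while 7 members did not pass the test. CTSS rose 4.96-fold, CST3 rose 2.40-fold and CSTB fell 2.07-fold. The test was limma-trend on log2(normalized reads + 1) over all 14424 tested genes, with Benjamini-Hochberg adjustment and a threshold of 0.05. For each gene it took the spread behind the SE and p-value partly from other genes (6.12 prior degrees of freedom). It called 2 of the 10 members higher, where 8.61% of all tested genes were called higher, and 1 lower, where 5.8% were called lower (14.4% in either direction). The median log2 difference of the 10 members was 0.22, beside 0.01 for all genes tested. In 8 of the 10 members (6 higher, 2 lower) the libraries of the lines did not overlap, which was so for 61.3% of all tested genes. Without parental library A, limma-trend called 0 of the 10 members and 2.92% of all tested genes. Without parental library B it also called 0, with 2.97% of all tested genes. The limma-trend log2 differences of CTSS, CST3 and CSTB were 2.162, 1.132 and -1.105 without parental A. Without parental B they were 2.462, 1.396 and -0.994. DESeq2 called only CTSS without parental A (8.28% of all tested genes) and CTSS and CST3 without parental B (5.8%). Without brain metastatic library A, limma-trend called CTSS and CST3 higher and CSTB and CTSH lower (36.4% of all tested genes), and without library B it called CTSS, CST3 and CSTB (21.8%).

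**Figure D1:**
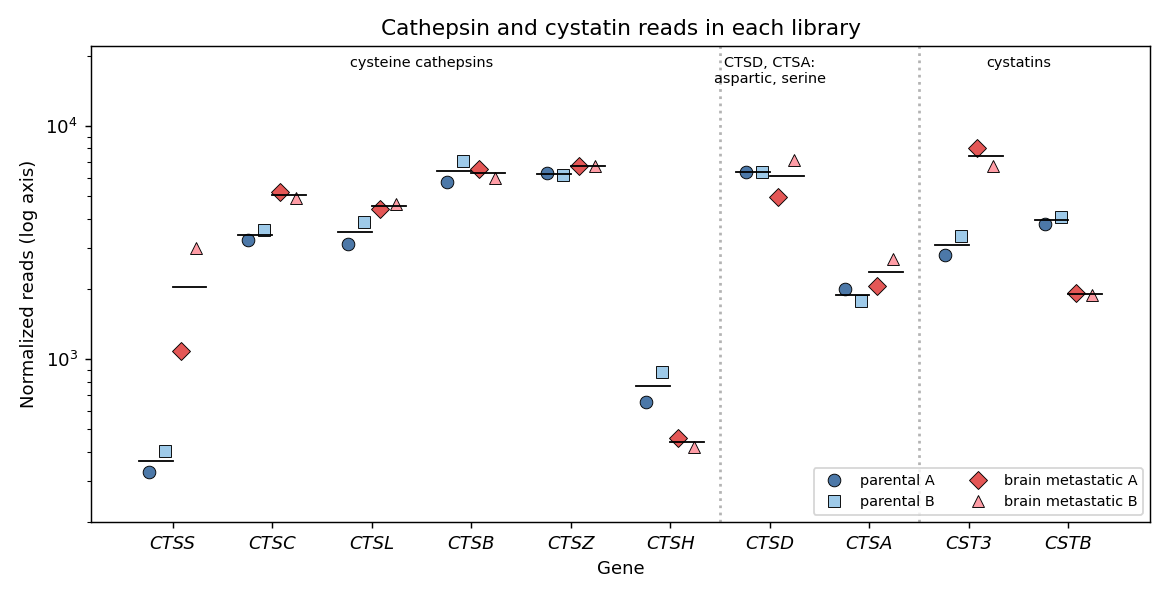
Normalized reads of each member (log axis) in the 4 libraries, with a line at the mean of each pair; cysteine cathepsins are on the left, CTSD and CTSA in the middle and cystatins on the right. CTSS and CST3 lie higher and CSTB and CTSH lower in both brain metastatic libraries, and the brain metastatic libraries of CTSS lie far apart, at 1089 and 3005.

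CTSS encodes cathepsin S, the endopeptidase that also trims the class II invariant chain in antigen-presenting cells. Its normalized reads were 328 in parental A, 404 in parental B, 1089 in brain metastatic A and 3005 in brain metastatic B. Both brain metastatic libraries were well above both parental ones, and they differed from each other by more than the parental libraries did. Means were 366 ± 53.7 for the parental and 2047 ± 1355 for the brain metastatic line (SD, n = 2 each), with a log2 difference of 2.31 ± 0.44 SE (limma-trend adjusted p = 0.013). This SE, which draws on other genes, is smaller than the CTSS libraries alone would give. Against the parental mean, library A was 1.58 and library B 3.04 higher on the log2 scale, so the size of the rise depended on the library. Without library B the fitted log2 difference was 1.58, and without library A it was 3.04. A fit with 1 brain metastatic library does not see the spread between A and B, so no p-value is given for it. Interferon response genes differed among themselves in library A. Their summed level there was below that of either parental library, and their median log2 deviation from the parental mean was 0.03. In both brain metastatic libraries, 7 of the 15 were above both parental ones and 0 were below. Over all tested genes, the lines did not overlap in 61.3%, in either direction. OAS1, an antiviral enzyme of that list, had 1.71 and 7.76 normalized reads in parental and 91.2 and 334 in brain metastatic libraries (log2 difference 5.17 ± 0.76 SE, limma-trend adjusted p = 0.00477). HSP90B1, the chaperone with most reads in the endoplasmic reticulum list, had 45941 and 42762 in parental and 61638 and 196691 in brain metastatic libraries. It did not pass (limma-trend adjusted p = 0.101), while DESeq2 called it higher. The part of the interferon and endoplasmic reticulum genes in the level of CTSS in either brain metastatic library was not tested. CIITA, the class II transactivator and a gene of the interferon list, had 91.3 and 66.9 in parental and 224 and 378 in brain metastatic libraries (log2 difference 1.88 ± 0.37 SE, limma-trend adjusted p = 0.0149). CSF1R, the only leukocyte marker analysed, was lower in brain metastatic libraries (log2 difference -2.76 ± 0.37 SE, limma-trend adjusted p = 0.00338). A link between CSF1R and CTSS was not tested.

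**Figure D2:**
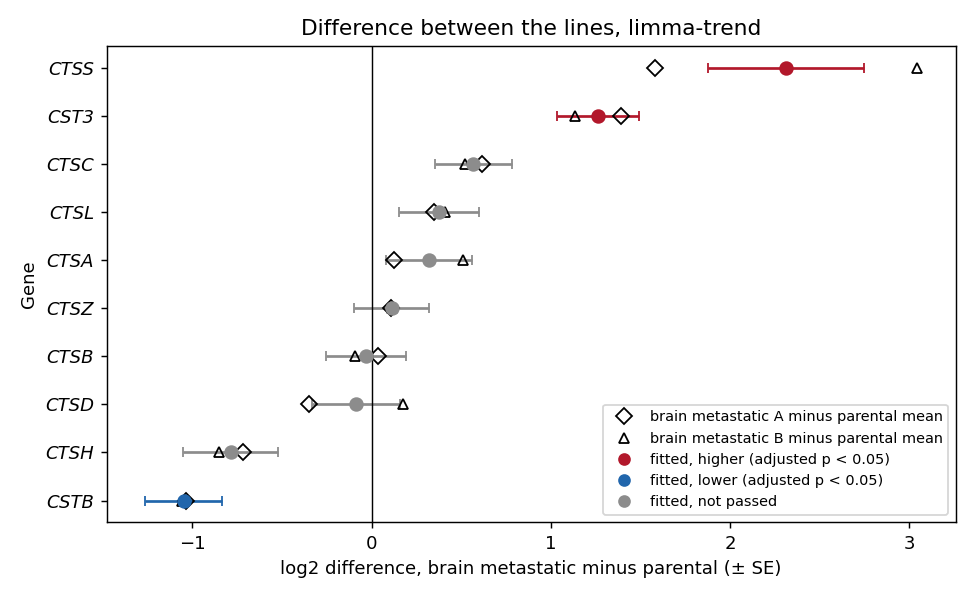
Log2 difference between the lines for each member, ordered by size; filled points are the fitted difference with its SE, open diamonds and triangles are brain metastatic libraries A and B minus the parental mean. CTSS (2.31) and CST3 (1.26) passed as higher and CSTB (-1.05) as lower; the 2 libraries are widest apart for CTSS, at 1.58 and 3.04.

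CTSB and CTSL, the broad-acting lysosomal endopeptidases of most tissues, did not pass. CTSB, which can also cut dipeptides from the carboxy end, had 5762 and 7081 normalized reads in parental and 6542 and 5981 in brain metastatic libraries. The lines overlapped, with a log2 difference of -0.03 ± 0.22 SE (limma-trend adjusted p = 0.942). CTSL had 3122 and 3866 in parental and 4414.5 and 4607 in brain metastatic libraries. Both brain metastatic values were above both parental ones, but the log2 difference of 0.38 ± 0.22 SE did not pass (limma-trend adjusted p = 0.284).

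CTSC, CTSH and CTSZ encode enzymes that trim proteins from their ends. CTSC, dipeptidyl peptidase I, which activates serine proteases of immune cell granules, had 3249.8 and 3585 normalized reads in parental and 5223 and 4899.9 in brain metastatic libraries. The lines did not overlap, and the log2 difference of 0.57 ± 0.21 SE had an unadjusted p of 0.0288 and did not pass (limma-trend adjusted p = 0.113). CTSH, mainly an aminopeptidase, had 654 and 883 in parental and 461 and 419.6 in brain metastatic libraries. Both brain metastatic values were below both parental ones (log2 difference -0.79 ± 0.27 SE, limma-trend adjusted p = 0.0844), and DESeq2 on the whole reads recovered from the table called it lower (log2 difference -0.83, adjusted p = 0.0431). DESeq2 called 4 of the 10 members, CTSH beside the 3 above, where it called 20.2% of all tested genes. CTSZ, a carboxypeptidase also named cathepsin X, was nearly level, with 6308 and 6126 in parental and 6711 and 6720.4 in brain metastatic libraries. Its log2 difference was 0.11 ± 0.21 SE (limma-trend adjusted p = 0.746).

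CTSD and CTSA work by other catalytic mechanisms and are not targets of cystatins. CTSD had 6328 and 6334 normalized reads in the parental libraries, which differed little, against 4976 in brain metastatic A and 7154 in brain metastatic B, 1 below and 1 above them. Its log2 difference was -0.09 ± 0.25 SE (limma-trend adjusted p = 0.837). CTSA, a carboxypeptidase that also protects the lysosomal enzymes encoded by NEU1 and GLB1, had 1989 and 1772 in parental and 2050.2 and 2678 in brain metastatic libraries. Brain metastatic A lay just above the parental libraries and B further above, with a log2 difference of 0.32 ± 0.24 SE (limma-trend adjusted p = 0.391). Its partners NEU1 (log2 difference -0.00, limma-trend adjusted p = 0.993) and GLB1 (0.05, adjusted p = 0.896) did not pass either and are named after their values were seen. Exons of CTSA overlap those of PLTP and of other genes on the opposite strand, and exons of CTSD overlap those of annotated genes on either strand. The strand setting of the counting is not given in the sources used here, so reads shared between them cannot be told apart.

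Promoter windows of 300 bases, taken from RefSeq (GRCh38.p14), were found for 7 of the 10 members, and not for CTSB, CTSS and CSTB. They were searched on both strands for CACGTG, the E-box core bound by TFEB and related activators of lysosomal genes, for the GC box GGGCGG, for TATAAA and for the core of the interferon-stimulated response element (ISRE), GAAA and GAAA with any 2 bases between them. CACGTG was in 2 of the 7 windows, CTSA and CTSD, and in 7.26% of 35116 promoter windows of the same length. GGGCGG was in 7 of 7 and in 45% of all windows. TATAAA (11.5% of all windows) and the ISRE core (3.57%) were in 0 of 7. The 30 bases around the E-box cores (capitals) show that CTSA holds 2, which start 42 and 25 bases before the RefSeq start, and CTSD 1, which starts 47 bases before it. The CTSA stretch lies on the plus strand at chr20:45891289-45891318 and the CTSD stretch on the minus strand at chr11:1763957-1763986.
CTSA: ctgtCACGTGgcgccggagttCACGTGact
CTSD: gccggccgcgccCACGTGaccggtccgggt
Neither gene passed the test between the lines. For contrast, 120 bases before the annotated exons of CST3, which rose, and of CTSH, which was lower in both brain metastatic libraries without passing limma-trend, are given with GC boxes in capitals. CST3 lies on the minus strand at chr20:23638027-23638146, and CTSH on the minus strand at chr15:78945095-78945214.
CST3: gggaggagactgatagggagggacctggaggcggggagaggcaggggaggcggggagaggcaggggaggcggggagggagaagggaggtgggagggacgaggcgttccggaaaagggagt
CTSH: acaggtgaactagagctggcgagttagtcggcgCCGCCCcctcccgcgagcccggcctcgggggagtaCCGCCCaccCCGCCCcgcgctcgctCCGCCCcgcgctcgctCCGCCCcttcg
The CST3 stretch holds none of the 4 motifs, and the 1 GC box of its window lies outside it. The CTSH stretch holds 5 GC boxes, all on the opposite strand of the one printed. These stretches end 71 (CST3) and 48 (CTSH) bases before the RefSeq start, so they are not the same region as the E-box stretches. A match is a string of letters and not a tested binding site.

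The cystatins changed in opposite directions. CST3, the secreted inhibitor cystatin C, had 2800.2 and 3362 normalized reads in parental and 8050.2 and 6747 in brain metastatic libraries. Both brain metastatic values were above both parental ones, at 3081 ± 397 against 7399 ± 922 (SD, n = 2 each, log2 difference 1.26 ± 0.23 SE, limma-trend adjusted p = 0.0108). CSTB, the cytosolic inhibitor cystatin B, whose loss causes a progressive myoclonus epilepsy, had 3782 and 4085 in parental and 1914 and 1884 in brain metastatic libraries. Both brain metastatic values were below both parental ones and close to each other, at 3933 ± 214 against 1899 ± 21.1 (SD, n = 2 each, log2 difference -1.05 ± 0.21 SE, limma-trend adjusted p = 0.0175). Against the parental mean, CST3 stood 1.39 (A) and 1.14 (B) higher in log2, and CSTB had log2 differences of -1.04 (A) and -1.06 (B), so neither change was carried by library B alone. Within a library, reads of CST3 per base of transcript were 0.488 (A) and 0.542 (B) times those of CSTB in the parental line and 2.77 (A) and 2.36 (B) times in the brain metastatic line. CSTB was thus the higher of the pair in both parental libraries and CST3 in both brain metastatic ones on this scale. With the longest annotated transcripts the ratios were 0.844 and 0.938, and 4.79 and 4.08. These ratios were formed after the changes were seen and are a description with no test. They depend on the transcript lengths used, and shorter transcripts were not tried.

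**Figure D3:**
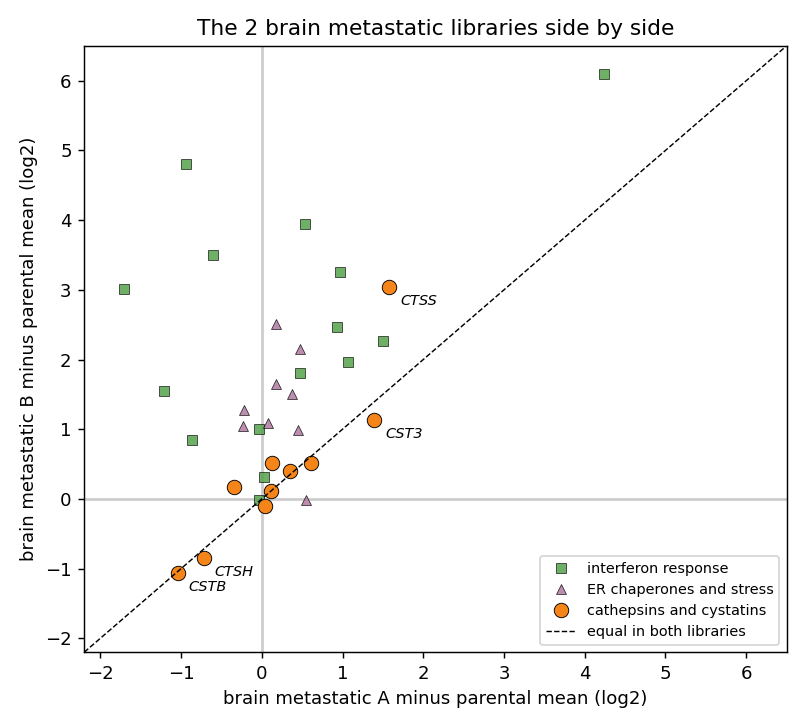
Log2 difference from the parental mean in brain metastatic library A (horizontal) against library B (vertical) for the members, 15 interferon response genes and 9 endoplasmic reticulum genes; the dashed line marks equal values. CST3, CSTB and CTSH lie near that line, and CTSS (1.58 in A, 3.04 in B) lies above it, on the side of most interferon and endoplasmic reticulum genes.

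Levels can be compared between genes only per length, so CPM values (reads scaled to the library's total) were divided by a transcript length in kilobases (CPM per kb). The length was that of the principal transcript, the longest where several are so tagged, which was 3286 bases for CST3 and 2164 for CSTB. A shorter transcript would give a gene a higher level and was not tried, so the order depends on this choice. In parental cells CTSZ was at 157, CTSD at 113, CSTB at 68.6, CTSC at 67.1, CTSB at 62.5, CTSL at 60.5, CST3 at 35.4, CTSA at 33.1, CTSH at 13.2 and CTSS at 3.36 CPM per kb. Values of neighbours in this order overlapped between libraries from CSTB to CTSL and between CST3 and CTSA, and the other neighbours were apart. In brain metastatic cells CTSZ was at 165, CTSD at 105, CTSC at 97.0, CST3 at 82.9, CTSL at 76.2, CTSB at 59.5, CTSA at 40.4, CSTB at 32.3, CTSS at 18.3 and CTSH at 7.40 CPM per kb. CTSD overlapped with CTSC and CST3 with CTSL, and the other neighbours were apart. CST3 moved from place 7 to place 4 and CSTB from place 3 to place 8. CTSS held 0.608% and 0.708% of the length-scaled reads of the 8 cathepsins in the parental libraries (A, B) and 1.80% and 4.50% in the brain metastatic ones (A, B). With the longest transcript or all merged exons as length, CTSZ stayed first in both lines, CTSS last in parental and CTSH last in brain metastatic cells. CTSC depended most on this choice: it was in place 4 of the parental order here and in place 8 with either of those lengths. CTSS in brain metastatic cells was in place 9 with the principal and the longest transcript. With merged exons its mean was in place 7, above CTSC, CTSA and CTSH. That mean joins 2 libraries far apart (9.82 in A and 26.7 in B CPM per kb of principal transcript). In library A alone, CTSS with merged exons was below CTSC and CTSA. As a share of all reads, the 8 cathepsins took 0.106% and 0.112% in parental and 0.117% and 0.13% in brain metastatic libraries, and the 2 cystatins 0.0251% and 0.0279% against 0.0369% and 0.0315%.

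Among 7 other cathepsins listed, 4 were analysed here and 1 was called higher, where 8.61% of all tested genes were called higher. CTSO, a little-studied cysteine cathepsin, had 85.3 and 102 normalized reads in parental and 219 and 310.5 in brain metastatic libraries (log2 difference 1.47 ± 0.33 SE, limma-trend adjusted p = 0.0232). CTSK, the collagen-cutting cathepsin of osteoclasts, had 46.9 and 43.7 in parental and 94.1 and 124 in brain metastatic libraries and did not pass (limma-trend adjusted p = 0.0576). CTSF and CTSV did not pass either, with log2 differences of -0.28 and -0.21. CTSV is a close relative of CTSL, and reads shared by such copies are uncertain.

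Of 10 other cystatins listed, 5 were analysed here, 4 were tested and 2 were called higher, both with a larger log2 difference than CST3. Over all tested genes 8.61% were called higher. CST1, the secreted cystatin SN of saliva and tears, had 264 and 717 normalized reads in parental and 4874 and 2617 in brain metastatic libraries. Both lines varied between their libraries, but no brain metastatic value came near a parental one (log2 difference 3.03 ± 0.48 SE, limma-trend adjusted p = 0.0062). CST4, the related cystatin S, had 144 and 315 in parental and 1781 and 1286 in brain metastatic libraries (log2 difference 2.82 ± 0.39 SE, limma-trend adjusted p = 0.00359). CST1 and CST4 are near-identical neighbours, so their reads may be shared and the pair may not be independent. CST7, cystatin F, an inhibitor of CTSC in immune cells, had 545 and 745 in parental and 375 and 178 in brain metastatic libraries. It did not pass (limma-trend adjusted p = 0.0579), while DESeq2, which called 20.2% of all tested genes, called it lower. CST6 was low, at 12.8 and 17.5 against 4.80 and 1.06, and did not pass (limma-trend adjusted p = 0.0841), and CSTA had a single read in the 4 libraries and was not tested.

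**Figure D4:**
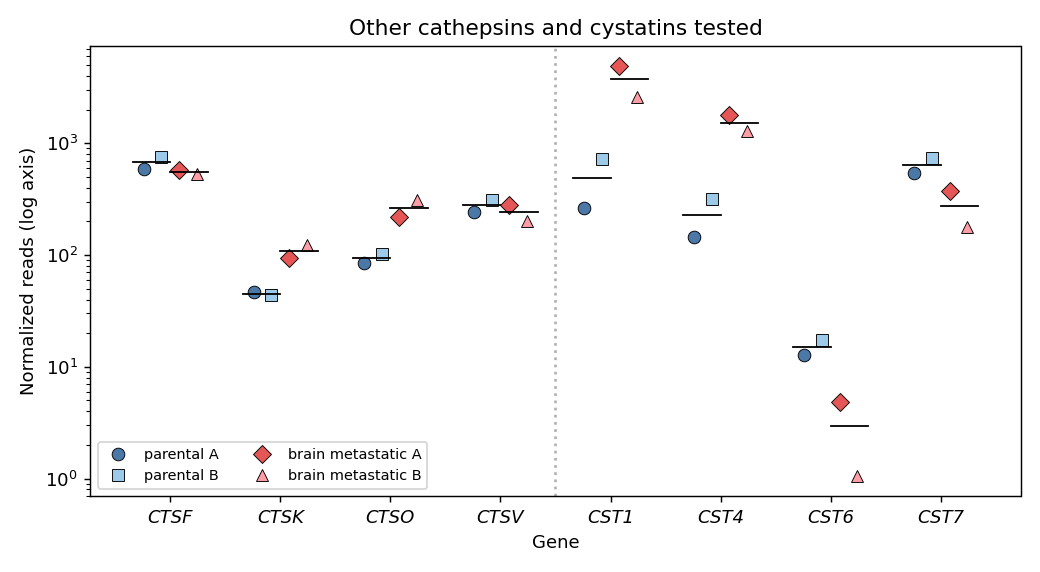
Normalized reads (log axis) of the other tested cathepsins (left of the dotted line) and cystatins (right) in the 4 libraries, with a line at the mean of each pair. CST1 and CST4 lie far higher in both brain metastatic libraries, at 2617 or more and 1286 or more, and CST6 and CST7 lie lower.

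Serpins form a further class of protease inhibitors. Of 7 listed, 3 were tested and 1 was called lower, where 5.8% of all tested genes were called lower. This was SERPINB9, best known as an inhibitor of granzyme B, with 2865 and 2412 normalized reads in parental and 1059 and 1052 in brain metastatic libraries. Its log2 difference was -1.32 ± 0.23 SE (limma-trend adjusted p = 0.00882). Of 6 further lysosomal peptidases tested, 1 was called lower and 5 did not pass. The former was DPP7, a dipeptidyl peptidase, with a log2 difference of -1.21 ± 0.24 SE (limma-trend adjusted p = 0.0169). Among the 4 complex partners and cathepsin cargo genes, GRN, the precursor of granulins that lysosomal proteases cut, had 2386 and 2340 in parental and 4589 and 4603 in brain metastatic libraries. It was the single member of that list called (log2 difference 0.96 ± 0.21 SE, limma-trend adjusted p = 0.0226), where 8.61% of all tested genes were called higher.

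The wider lysosome did not move as a block. The 11 lists of other cathepsins, cystatins, inhibitors and lysosomal, sorting, regulator and junction genes had 118 tested genes, of which 13 were called higher and 5 lower. That is 15.3%, close to the 14.4% of all tested genes. Lysosomal glycosidases, sulfatases and lipases had 5 of 29 tested genes higher, 1 lower and 23 not passing, with a median log2 difference of 0.41 beside 0.01 for all genes. The largest increase was in IDS, a sulfatase of heparan and dermatan sulfate (1809 and 1957 against 7418 and 8118 normalized reads, log2 difference 2.04 ± 0.21 SE, limma-trend adjusted p = 0.00125). SMPD1, acid sphingomyelinase, followed (1.11), and ASAH1, MAN2B1 and GLA, named after their values were seen, were between 0.94 and 0.97. NPC2, a cholesterol-binding protein of the lysosome, fell by 1.09 on the log2 scale (limma-trend adjusted p = 0.0249). Subunits of the V-ATPase, the pump that acidifies the lysosome, had 3 of 16 tested higher and 13 not passing, with a median of -0.13. Those higher were ATP6V0A1 (1.46), ATP6AP1 (1.32) and, named after its values were seen, ATP6V1B2 (0.85), as log2 differences.

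Genes that carry enzymes to the lysosome had 0 of 15 tested called in either direction with limma-trend, and so had lysosomal membrane proteins. Over all tested genes 14.4% were called in either direction. SORT1, a sorting receptor and the most abundant of the first list in reads, had a log2 difference of -0.55 (limma-trend adjusted p = 0.121), and LAMP2, a major membrane glycoprotein, 0.52 (adjusted p = 0.169). At an unadjusted limma-trend p below 0.05 there were 3 of the sorting genes and 1 of the membrane genes. The share of all tested genes at that threshold was not counted. It was above the 14.4% called after adjustment, since each called gene also lies under it. These counts are therefore not read as an excess. DESeq2 called 1 sorting gene, VPS26A, a subunit of the retromer, as lower and 0 membrane genes, where it called 20.2% of all tested genes. VPS26A is named after its values were seen. Regulators around TFEB and mTORC1 had 2 of 16 tested lower and 14 not passing. Those lower were RRAGD (-1.02) and LAMTOR1 (-0.97), both parts of the lysosomal amino acid sensing machinery, as log2 differences. TFEB itself had 109 and 146 normalized reads in parental and 216 and 107 in brain metastatic libraries, which overlapped (limma-trend adjusted p = 0.688). Of 6 tested junction genes, some of them known cathepsin targets, 1 was called: F11R, the junction molecule JAM-A, with 311 and 464 in parental and 886 and 1076 in brain metastatic libraries (log2 difference 1.36 ± 0.29 SE, limma-trend adjusted p = 0.0194). JAM2, which encodes JAM-B, was not analysed here.

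**Figure D5:**
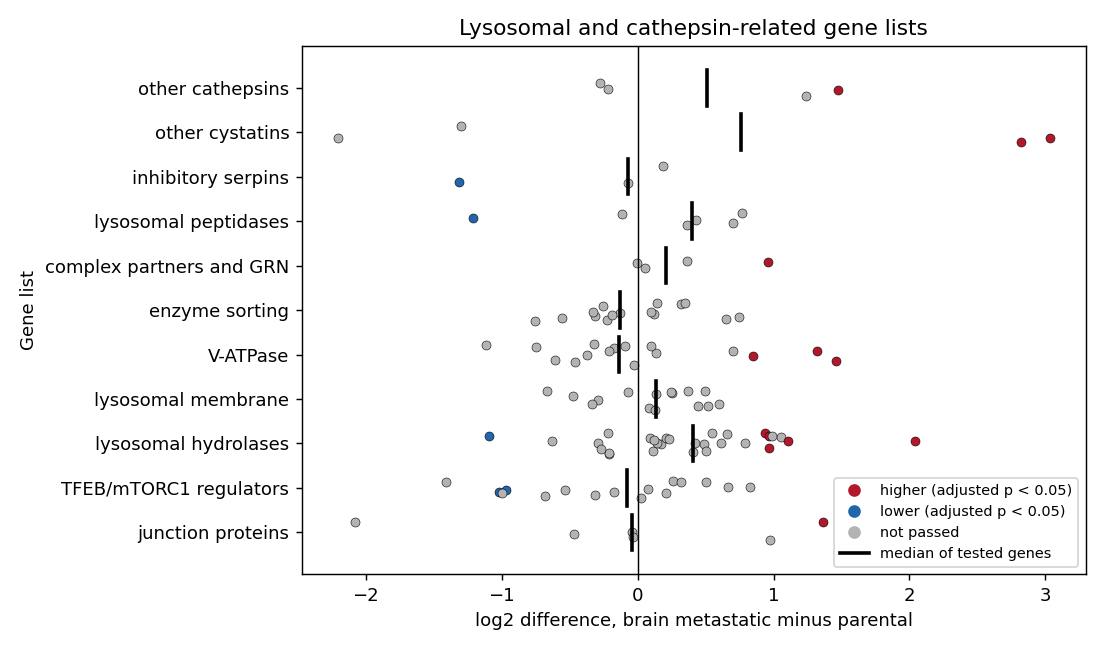
Log2 difference between the lines for each tested gene of the 11 lists, in rows, with a bar at each list's median; red and blue points passed as higher or lower. Passing genes are scattered over the lists, with CST1 (3.03), CST4 (2.82) and IDS (2.04) farthest to the right.

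The genes whose pattern over the 4 libraries was most like that of CTSS were found by the Euclidean distance of log2 values from the parental mean, among 11279 genes with at least 5 CPM in the higher line. They were B3GNT7, a glycosyltransferase (distance 0.292), TLR3, a receptor for double-stranded RNA (0.299), and TRIM66 (0.412). TLR3 had 90.4 and 86.3 normalized reads in parental and 295 and 722 in brain metastatic libraries. Its likeness to CTSS follows from the way it was picked. With 4 libraries such likeness is a description only.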

How the data were processed

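Per the submitters' processing notes, reads were aligned with HISAT2 to GRCh37, counted with featureCounts and normalized with DESeq2. The sources used here do not give versions, annotation, strand setting or filters. The deposited values are a signal, gene counts divided by a size factor per library by the authors, and 100% of them came out as whole reads within 0.01 reads once the size factors were recovered. In each library 1 read was 0.0325 to 0.0387 CPM. Rows without a gene name (67, with 0.031% to 0.0369% of the reads) were left out, as were 855 genes failing edgeR's filter (minimum count 10, total 15).

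The main test was limma-trend (limma 3.58.1, R 4.3.3) on log2(deposited value + 1), over all 14424 genes that passed, with a fold change on that scale. edgeR 4.0.16 (quasi-likelihood, on recovered reads) called 2228 genes, and DESeq2 1.42.0 (on recovered reads) was a further alternative. The limma-trend, edgeR, DESeq2 and limma-voom fits were each tried on simulated counts with known changes. The column names give each library's line but no replicate.

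The members and gene lists were chosen with earlier results of these data known. The text names all members, up to 2 called genes with the largest increase and 2 with the largest decrease per list (5 CPM or more on average in the line with the higher level), the gene with most reads where none was called, and the 3 genes most like CTSS. The other tested cathepsins and cystatins were named in full after their values were seen.

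Lengths, exon overlaps and the exon edges that bound the CST3 and CTSH stretches came from GENCODE v29, matched by symbol. The principal transcript, the longest where several are so tagged, replaced the planned longest one after lengths and levels were seen. The 4 motifs and the promoter stretches were chosen after the members' values were seen, and sequences are from RefSeq (GRCh38.p14).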

Additional observations from a re-analysis of the deposited data

How the results depend on the processing

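CTSS, CST3 and CSTB kept their direction in all 17 alternatives tried for each (edgeR, DESeq2, limma-voom, 2 other scalings, 2 other pseudocounts, 2 other filters, and each library left out with limma-trend and with DESeq2). They kept their call in 15, 14 and 13 of these, and lost it only when a parental library was left out. Leaving out libraries in turn gave 0 to 2 members called higher and 0 to 2 called lower, where the reported counts were 2 and 1. Over all genes it gave 421 to 5257 calls (2079 reported), and over the 118 genes of the 11 lists 3 to 44 (18 reported), so the number of calls rests on which library is kept. With 1 library left in a line, that library is assumed to vary like those of the other line. DESeq2 on all libraries called 2 members lower, CTSH beside CSTB. CTSH passed in 2 of 17 alternatives. The log2 difference of CTSB, -0.03 as reported, ranged from -0.210 to 0.118 as libraries were left out and was above 0 without parental B or brain metastatic B. That of CTSD, -0.09 as reported, ranged from -0.359 to 0.176 and was above 0 without brain metastatic A. The cause of these changes was not tested. Scaling by TMM or by library totals moved the median log2 difference of all genes by -0.026 and -0.037 and no member's direction. DESeq2 with libraries left out was added after seeing the data. No paired analysis was possible because the column names carry no replicate numbers. With 2 libraries a line, differences the size of those of CTSC or CTSL did not pass limma-trend after adjustment and stay undecided. The libraries of the lines did not overlap for either gene.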
